A study of Mus musculus with 20 samples.

Results

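Gene expression was compared between microglia of mice carrying either human C4 gene and microglia of mice labelled C4-/-. The comparison pooled 11 libraries, namely 5 labelled hC4A/-, 4 labelled hC4B/- and 2 labelled hC4A/A, and set them against the 5 libraries labelled C4-/-. Members were chosen by genotype label alone, so they make up 16 of the 20 libraries of the series, and 4 WT libraries stayed out. Each library came from the frontal cortex of 1 mouse at postnatal day 40, from 1000 cells sorted as CD11b high and CD45 low, whose cDNA was made by template switching, amplified and prepared with a Nextera kit. The labels call the mice humanized transgenics and name the human C4A and C4B sequences. They do not state the promoter, the insertion site, the number of founder lines, the sex of the mice, or whether the mice with human C4 also lack mouse C4.

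C4 acts early in the classical pathway of complement. It is cleaved after C1q has bound a target, and its larger fragment attaches covalently to nearby surfaces, where phagocytes such as microglia can recognise the deposited complement fragments. The proteins of the human genes C4A and C4B differ in the chemical groups they bind most readily, and in the brain complement is best known for tagging synapses for removal by microglia. Microglia themselves make C1q and carry the complement receptor built from Itgam and Itgb2.

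No gene passed in the pooled comparison. edgeR's quasi-likelihood test with Benjamini-Hochberg adjustment called 0 of 8114 tested genes (0%), the threshold being an adjusted p of 0.05 and the smallest value 0.9997. At an unadjusted p under 0.05 there were 260 genes (3.2%), 182 higher with human C4 (2.24%) and 78 lower (0.961%), where chance gives 406. DESeq2 called 1 gene, Hs3st3b1, with 358 genes under an unadjusted p of 0.05, and limma voom called 0 with 220. Higher genes made up 70% of the 260, but 59.5% with RLE scaling, 51.2% without the 4 broad libraries described next and 41.8% with voom. Every difference named below failed the correction in this edgeR fit, and calls by other tools or settings are named where they were made. The median log2 fold change over all tested genes was 0.03, and the middle 50% of genes lay between -0.35 and 0.47.

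The libraries held 855099 to 2735181 counts over genes, with medians of 1799370 with human C4 and 1514541 in C4-/-. Detected genes numbered 11348 to 30907, and 4 libraries above 27000 are called broad here, namely hC4B/- replicates 2 and 3, the second hC4A/A library and C4-/- replicate 3. The satellite-like predicted gene Gm10800 took 9.61% to 65.9% of counts, with a median of 36.1% with human C4 and 21.7% in C4-/-. All 11 microglial markers examined, among them P2ry12, Tmem119 and Cx3cr1, were detected in each of the 16 libraries, and their summed level was 5300 to 7620 CPM with human C4 and 5420 to 9000 in C4-/-. CPM here are counts relative to the library total, scaled by TMM factors. In bulk libraries fewer cells of a type and less RNA per cell cannot be told apart. Libraries fell into 3 runs of numbers in their deposited names, and all 5 libraries with more than 5 CPM of the Y-linked Ddx3y lay in 1 of these runs, so the run and Y-linked transcripts cannot be told apart. Of the 11 libraries with human C4, 3 were among these, as were 2 of the 5 C4-/- libraries. By label the 3 were 2 of 5 hC4A/-, 1 of 2 hC4A/A and 0 of 4 hC4B/- libraries. All 4 hC4B/- libraries lay in another run, which holds 1 C4-/- library. In the contrasts of hC4B/-, label, run and Y-linked transcripts therefore cannot be fully told apart. With the run or with Xist as a covariate, edgeR called 0 genes.

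Mouse C4b, the gene the C4-/- label refers to, was counted in every library, and its level did not separate the groups. C4b (ENSMUSG00000073418, GRCm38 chromosome 17, 34728380 to 34743882) held 104, 7, 157, 7 and 46 counts in the 5 libraries labelled C4-/-. The 5 hC4A/- libraries held 18, 5, 5, 23 and 45 counts, the 4 hC4B/- libraries 9, 230, 428 and 4, and the 2 hC4A/A libraries 21 and 271. The 4 broad libraries were the 4 highest in CPM, at 126 in C4-/- replicate 3, 346 and 333 in hC4B/- and 448 in hC4A/A, and the other 12 held 2.66 to 40.9. Mean log2 CPM was 4.38 ± 2.76 with human C4 (SD, n = 11) and 4.41 ± 1.9 in C4-/- (n = 5), a difference of -0.04 (two-sided exact permutation test, p = 0.979, 4368 splits). The edgeR log2 fold change was 1.42 ± 1.22 (SE) over all libraries, -1.48 without the broad ones, 2.52 without C4-/- replicate 3 alone and 0.92 without hC4A/A replicate 2 alone. The labels do not say which part of C4b is deleted, and a count over the whole gene cannot be split by exon. Genotype names below are those of the labels, and each direction rests on them. The deposited counts cover 54838 mouse genes and 0 human gene identifiers, so human C4A and C4B transcripts were not measured here.

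**Figure D1:**
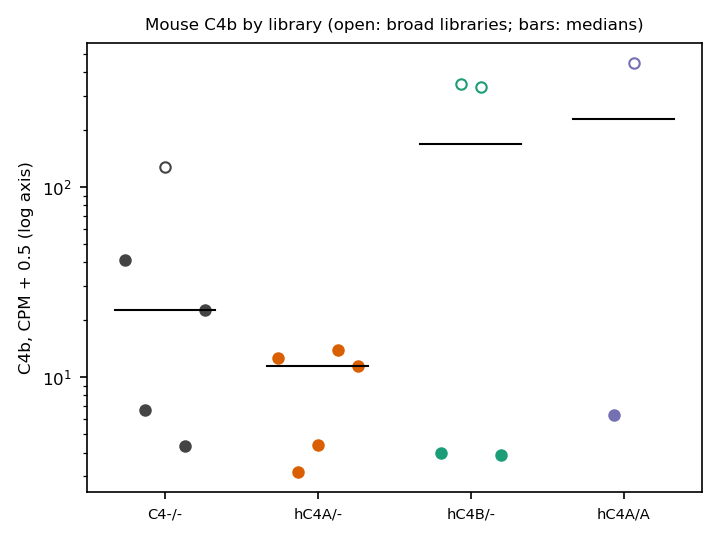
Mouse C4b by library, as TMM-scaled CPM plus 0.5 on a log axis, for the 5 C4-/-, 5 hC4A/-, 4 hC4B/- and 2 hC4A/A libraries. Each point is 1 library, open circles are the 4 broad libraries and bars are medians. The open circles are the highest points of their groups, and the filled circles of all groups overlap.

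Changes shared by both human genes were defined as an unadjusted p under 0.05 in the same direction in hC4A/- against C4-/- and in hC4B/- against C4-/-. These 2 contrasts share their 5 control libraries, so a low or high control group moves both. Each contrast alone called 0 genes in edgeR (0%), with smallest adjusted p values of 0.512 and 0.571. At an unadjusted p under 0.05 hC4A/- held 621 genes (7.65%), 195 higher (2.4%) and 426 lower (5.25%), and hC4B/- held 273 (3.36%), 168 higher (2.07%) and 105 lower (1.29%). DESeq2 called 15 and 3 genes while voom called 1 and 0. In all 46 genes (0.567%) met the definition, 37 higher with human C4 (0.456%) and 9 lower (0.111%), and 40 of them are protein coding. Their log2 fold changes in the pooled contrast ran from 1.4 to 5.68 for the higher genes, with a median of 2.79, and from -4.1 to -0.97 for the lower genes, with a median of -2.31. The contrast of hC4A/A shares the same controls and held 128 genes under an unadjusted p of 0.05 (1.58%), 89 higher (1.1%) and 39 lower (0.481%). In hC4A/- against hC4B/-, 822 genes were under an unadjusted p of 0.05 (10.1%), 187 higher in hC4A/- (2.3%) and 635 lower (7.83%), and edgeR called 0 (0%). The definition favours genes with like values in those 2 labels, so the count of shared genes in that contrast is not read. DESeq2 called 73 genes in that contrast and voom 0. Differences of hC4B/- from the other labels cannot be fully told apart from the run of numbers, as given above. The number of shared genes varied with single libraries and was 108 without C4-/- replicate 3, 70 without C4-/- replicate 4 and 27 without hC4B/- replicate 1.

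**Figure D2:**
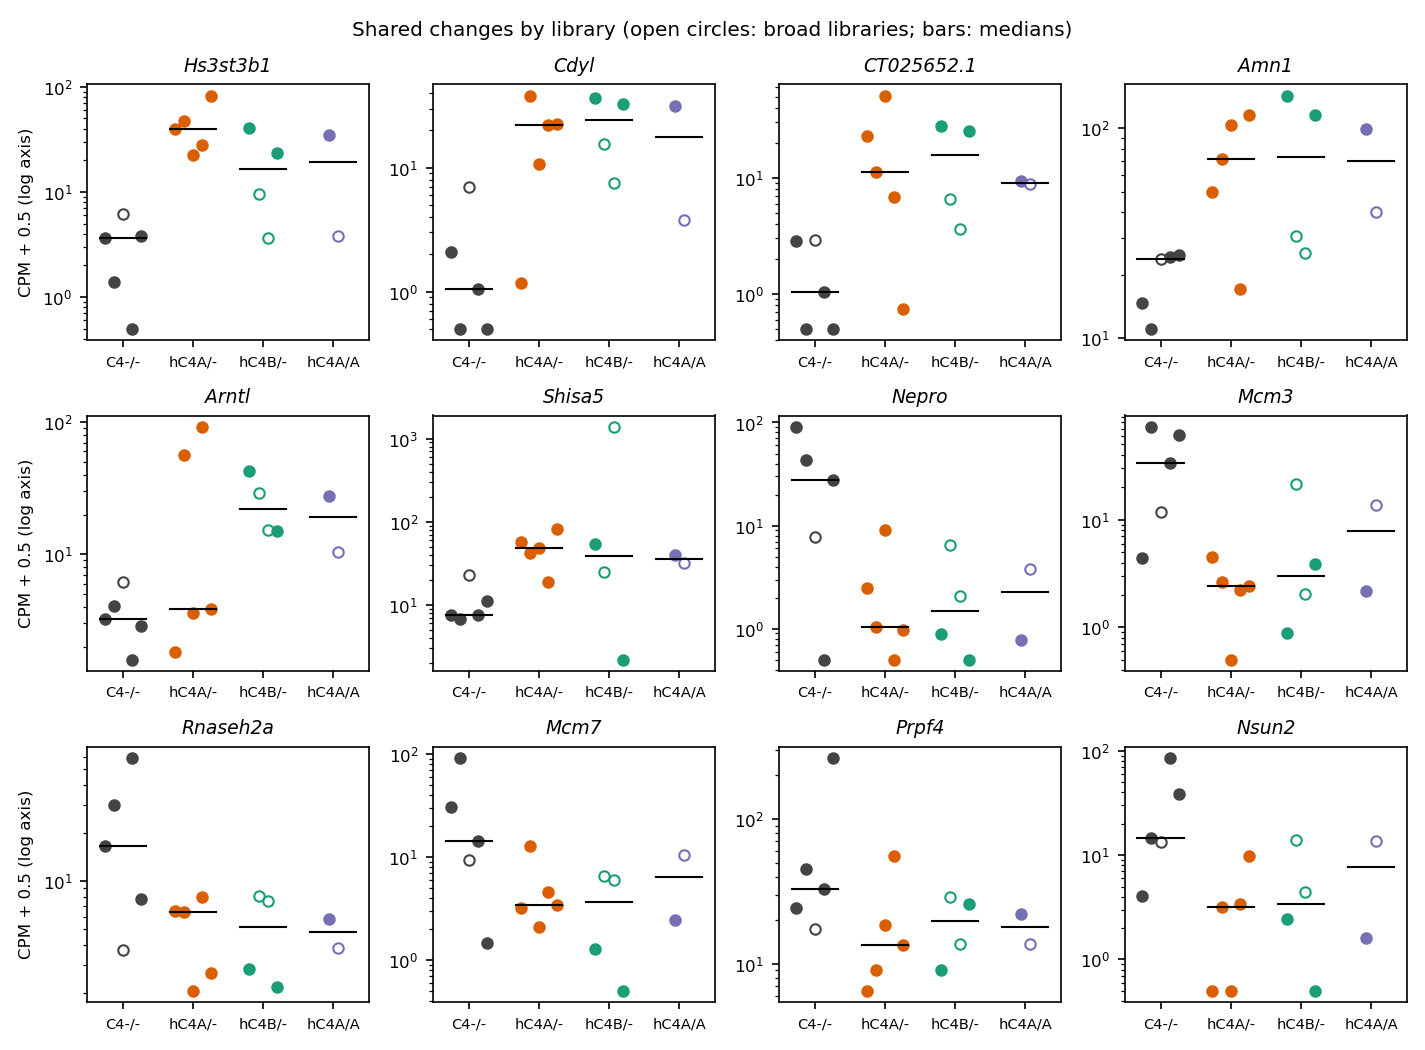
The 6 higher and 6 lower shared genes of smallest pooled p among those detected in at least 12 libraries, as TMM-scaled CPM plus 0.5 on log axes, by label. Each point is 1 library, open circles are the 4 broad libraries and bars are medians. For Hs3st3b1 the 3 open circles with human C4 lie near the C4-/- points and the 8 filled ones above them.

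The clearest of the higher shared genes was Hs3st3b1, which encodes a Golgi enzyme that adds sulfate to heparan sulfate chains. Hs3st3b1 (ENSMUSG00000070407, chromosome 11, 63885792 to 63922290) was at 3.15, 0.886, 5.63, 0 and 3.35 CPM in the 5 C4-/- libraries. With human C4 it ranged from 3.12 to 80.9 CPM with a median of 27.7, and 9 of 11 libraries lay above the highest C4-/- library. The remaining 2 and the lowest of the 9 were the broad libraries with human C4, at 3.12, 3.3 and 9.02 CPM, so the groups overlapped only through broad libraries. Its mean CPM was 29.9 ± 22.5 with human C4 (SD, n = 11) and 2.6 ± 2.22 in C4-/- (n = 5), and the log2 fold change was 3.50 ± 0.89 (SE, edgeR unadjusted p = 0.000608, adjusted p = 1). By genotype the value was 4.03 for hC4A/-, 2.83 for hC4B/- and 2.87 for the 2 hC4A/A libraries. DESeq2 gave 3.40 with an adjusted p of 0.0279, and over the edgeR and voom settings no other call was made. Leaving out each library in turn gave 3.22 to 3.96.

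Arntl, which encodes BMAL1, the partner of CLOCK in the activating arm of the circadian clock, was also higher with both human genes. Arntl (ENSMUSG00000055116, chromosome 7, 113207465 to 113314126) was at 2.75, 3.54, 5.63, 1.09 and 2.39 CPM in C4-/-. The 5 hC4A/- libraries held 1.33, 56, 3.12, 91.2 and 3.38 CPM, the 4 hC4B/- libraries 42.1, 28.6, 14.8 and 14.4, and the 2 hC4A/A libraries 27.1 and 9.91. All 6 libraries of hC4B/- and hC4A/A lay above every C4-/- library, whereas 3 of the 5 hC4A/- libraries lay within the C4-/- range. The log2 fold change was 3.11 ± 0.92 (unadjusted p = 0.00242, adjusted p = 1), and its mean was 26.5 ± 27.5 against 3.08 ± 1.68 CPM. Other clock genes, looked up after Arntl was seen, did not show such a difference. Clock was at -0.48 ± 0.46, Per1 at -0.18, Per3 at -0.14 and Nr1d2 at -0.15 on the log2 scale, and Npas2, Per2, Cry1, Cry2, Nr1d1 and Dbp did not pass the filter on low counts.

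Several regulators of chromatin, transcription and signalling followed among the higher genes. Cdyl, which encodes a chromodomain corepressor that binds methylated histones, was at 1.57, 0, 6.43, 0.544 and 0 CPM in C4-/- and at 0.666 to 37.3 with human C4 (median 21.4), with 9 of 11 libraries above the highest C4-/- library. Its log2 fold change was 3.54 ± 1.02, and 5.12 without the broad libraries. Amn1, named after a yeast antagonist of mitotic exit, was at 10.6 to 24.4 CPM in C4-/- and at 16.7 to 142 with human C4, and 10 of 11 libraries lay above all C4-/- libraries. The 1 exception was hC4A/- replicate 4. Amn1 gave log2 fold changes of 1.88, 2.02 and 1.85 for hC4A/-, hC4B/- and hC4A/A, and 1.92 ± 0.56 in the pooled contrast. The contrasts share their controls and the definition favours like values, so this likeness is not read. CT025652.1, an antisense gene at chromosome 17, 28318186 to 28319602, was higher by a log2 fold change of 3.74 ± 1.08. It lies opposite Fance, and counts without strand cannot separate the pair.

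Fosl2, the AP-1 subunit Fra-2, was higher in every hC4A/- library than in any C4-/- library. Fosl2 (ENSMUSG00000029135, chromosome 5, 32135801 to 32157842) was at 65.7, 38.1, 20.9, 27.2 and 33.5 CPM in C4-/- and at 157, 171, 148, 155 and 221 in hC4A/-. In hC4B/- it was at 97.6, 30.1, 136 and 163, and in hC4A/A at 107 and 18.2. The 2 libraries inside or under the C4-/- range were hC4B/- replicate 2 and hC4A/A replicate 2, both broad. The pooled log2 fold change was 1.78 ± 0.55 (unadjusted p = 0.00341, adjusted p = 1), and by genotype 2.20, 1.52 and 0.77. Igbp1, which encodes a binding partner of the phosphatase PP2A catalytic subunit, was not a shared change: its log2 fold change was 3.23 in hC4A/-, 2.95 in hC4A/A and 1.40 in hC4B/- (unadjusted p = 0.116 for the last), with 2.73 ± 0.83 in the pooled contrast. Shisa5, an endoplasmic reticulum protein linked to p53-dependent cell death, had a fold change whose size rested on 1 library. hC4B/- replicate 3, a broad library, held 1370 CPM, the other 10 libraries with human C4 held 1.69 to 81.1 and C4-/- held 6.2 to 22.5, and the log2 fold change went from 3.91 ± 1.20 to 1.91 without that library. Of the 11 libraries with human C4, 9 lay above every C4-/- library.

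The other higher shared genes covered several functions. Among zinc finger genes were Zfp760 (log2 fold change 2.58), Zfp873 (2.44) and Zfp11 (3.32). Genes of mitochondrial proteins included Gcsh, the H protein of the glycine cleavage system (3.18), and Mrrf, the mitochondrial ribosome recycling factor (2.79). Genes of protein turnover and synthesis included the proteasome-linked deubiquitinase Uchl5 (2.33), the NEDD8-activating enzyme subunit Nae1 (1.40), the leucyl-tRNA synthetase Lars (1.85) and the nuclear cap-binding protein Ncbp2 (2.26). Surface receptors were represented by Ifnar2, a subunit of the type I interferon receptor, and Bmpr1a, a BMP type I receptor. Ifnar2 averaged 57.2 ± 34.6 CPM with human C4 and 20.5 ± 11.6 in C4-/- (log2 fold change 1.48 ± 0.56), and 6 of 11 libraries lay above the highest C4-/- library. Bmpr1a averaged 29.3 ± 19 against 7.17 ± 8.15 (2.03 ± 0.83), with 8 of 11 above. The largest log2 fold change among the 37 belonged to Lypd6, at 5.68 ± 1.60, but Lypd6 was detected in 9 of 16 libraries and averaged 9.92 ± 11.9 CPM against 0.161 ± 0.36.

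Lower with both human genes were 9 genes: Nepro, Mcm3, Rnaseh2a, Mcm7, Prpf4, Nsun2, Atg4c, Pald1 and Poll. Of these, 4 act in DNA replication or repair. Mcm3 and Mcm7 are subunits of the replicative helicase, Rnaseh2a is the catalytic subunit of RNase H2, which removes RNA from RNA-DNA hybrids, and Poll is DNA polymerase lambda. That grouping was made after the genes were seen and was not tested. Poll averaged 7.27 ± 13.8 CPM with human C4 and 28.8 ± 39 in C4-/-, and its pooled log2 fold change of -1.96 ± 1.06 had an unadjusted p of 0.076, with 0.03 for hC4A/A. It was the only 1 of the 46 above an unadjusted p of 0.05 in the pooled contrast.

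Promoter windows are shown for Mcm3, Mcm7 and Arntl because these shared genes are textbook cases of a promoter motif. Capitals mark the motif, TTTNGCGC for the E2F-type site and AAAGTAGG for the start of the element bound by ROR and REV-ERB proteins. The sequences are from RefSeq on GRCm38.p6, printed 5′ to 3′ on the strand of the gene.
Mcm3, chr1:20820263-20820284, minus strand: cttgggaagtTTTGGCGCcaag
Mcm7, chr5:138171850-138171877, minus strand: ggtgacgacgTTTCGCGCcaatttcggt
Arntl upstream match, chr7:113207491-113207518, plus strand: gattggtcggAAAGTAGGttagtggtgc
Arntl downstream match, chr7:113207527-113207554, plus strand: gggaaggcagAAAGTAGGtcagggacgg
Searched on both strands, TTTNGCGC was in 452 of 32851 RefSeq promoter windows of 300 bases (1.38%), in 2 of the 7 lower shared genes that matched the table and in 1 of the 28 higher ones. AAAGTAGG was in 268 windows (0.816%), in 1 of the 28 higher genes, Arntl, and in 0 of the 7 lower ones. The 2 lower genes are Mcm3 and Mcm7. They and Arntl were taken up as textbook cases of these motifs, so their matches say nothing about the other shared genes. A gene counts when any of its windows matches, so these numbers are not read against the share of windows, and enrichment was not tested. The motifs do not overlap each other, and a match is a description of the sequence and not of binding.

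Mcm3 (ENSMUSG00000041859, chromosome 1, 20802968 to 20820312) was at 3.93, 71.8, 11.3, 33.2 and 60.3 CPM in C4-/-. With human C4 it ranged from 0 to 21.1 with a median of 1.93, and all 11 libraries lay below the C4-/- median of 33.2. The highest 2 with human C4 were broad libraries, at 21.1 and 13.2 CPM. The mean was 4.64 ± 6.52 against 36.1 ± 29.7 CPM, a log2 fold change of -3.08 ± 0.83 (unadjusted p = 0.00109, adjusted p = 1). Mcm7 (ENSMUSG00000029730, chromosome 5, 138164583 to 138172422) was at 29.9, 90.4, 8.84, 13.6 and 0.957 CPM in C4-/- and at 0 to 12.3 with human C4, again all 11 below the C4-/- median. Its log2 fold change was -2.75 ± 0.80, and -1.66 without C4-/- replicate 2, the highest library. Within the 3 runs of numbers its log2 difference was -3.32, -1.19 and 0.68, the last in the run with 1 C4-/- library. Mcm7 overlaps Cops6 and Ap4m1 on the other strand, whose reads cannot be told apart where the genes overlap. The helicase did not move as a whole: Mcm4 was at -0.76 ± 1.04, with a median of 9.02 CPM with human C4 and 2.72 in C4-/-, and Mcm2, Mcm5 and Mcm6 did not pass the filter on low counts.

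Nepro, a nucleolar protein of neural progenitors, had the smallest p of the comparison. Nepro (ENSMUSG00000036208, chromosome 16, 44724301 to 44737284) was at 89.6, 42.5, 7.24, 0 and 27.3 CPM in C4-/- and at 0 to 8.59 with human C4, with a median of 0.533. C4-/- replicate 4 held no count, so the groups overlapped, but all 11 libraries with human C4 lay below the C4-/- median. The log2 fold change was -4.10 ± 0.97 (unadjusted p = 0.000323, adjusted p = 1), and -3.90, -4.25 and -4.57 by genotype. Within the 3 runs the log2 difference was -5.05, 0.25 and -3.71, so 1 run did not show it. Nepro overlaps Gtpbp8 on the other strand. Rnaseh2a was at 16.1, 29.2, 3.22, 58.2 and 7.18 CPM in C4-/- and at 1.56 to 7.52 with human C4 (log2 fold change -2.31 ± 0.65), and the lowest C4-/- library was the broad one. By genotype Rnaseh2a was at -2.29 ± 0.87, -2.32 ± 0.97 and -2.35 ± 1.28, contrasts that share the 5 C4-/- libraries, and it overlaps Prdx2. The other RNase H2 subunits were at 0.05 for Rnaseh2b and -0.44 for Rnaseh2c.

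For some of the remaining lower genes a few C4-/- libraries carried much of the difference. Nsun2, an RNA cytosine methyltransferase, was at 3.54, 14.2, 12.9, 84.8 and 37.8 CPM in C4-/- and at 0 to 13.5 with human C4 (log2 fold change -2.85 ± 0.88, and -2.02 without C4-/- replicate 4). Prpf4, a spliceosomal protein, held 263 CPM in C4-/- replicate 5 and 16.9 to 44.3 in the other 4, against 6 to 55.4 with human C4. Without that library its log2 fold change of -1.98 ± 0.60 was -0.61, and within the 3 runs the difference was -1.53, 0.03 and -3.94. Fgfr1op, which encodes a centrosomal protein, was not shared and behaved alike, at -2.01 ± 0.67 and at -0.64 without C4-/- replicate 4, which held 93.5 CPM, and within the runs it was at -0.69, -3.31 and 0.50. Atg4c, a protease of autophagy, was lower with less spread, at 2.73 ± 1.73 against 9.53 ± 3.24 CPM (log2 fold change -1.84 ± 0.65). Pald1 was the most abundant of the 9, at 67.8 ± 28.2 against 132 ± 45 CPM (-0.97 ± 0.40). Outside the shared set, Mcat, the malonyltransferase of mitochondrial fatty acid synthesis, was at -2.16 ± 0.70 and overlaps Tspo, and Gm43275, a predicted gene inside Med13l, was at -1.92 ± 0.65.

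**Figure D3:**
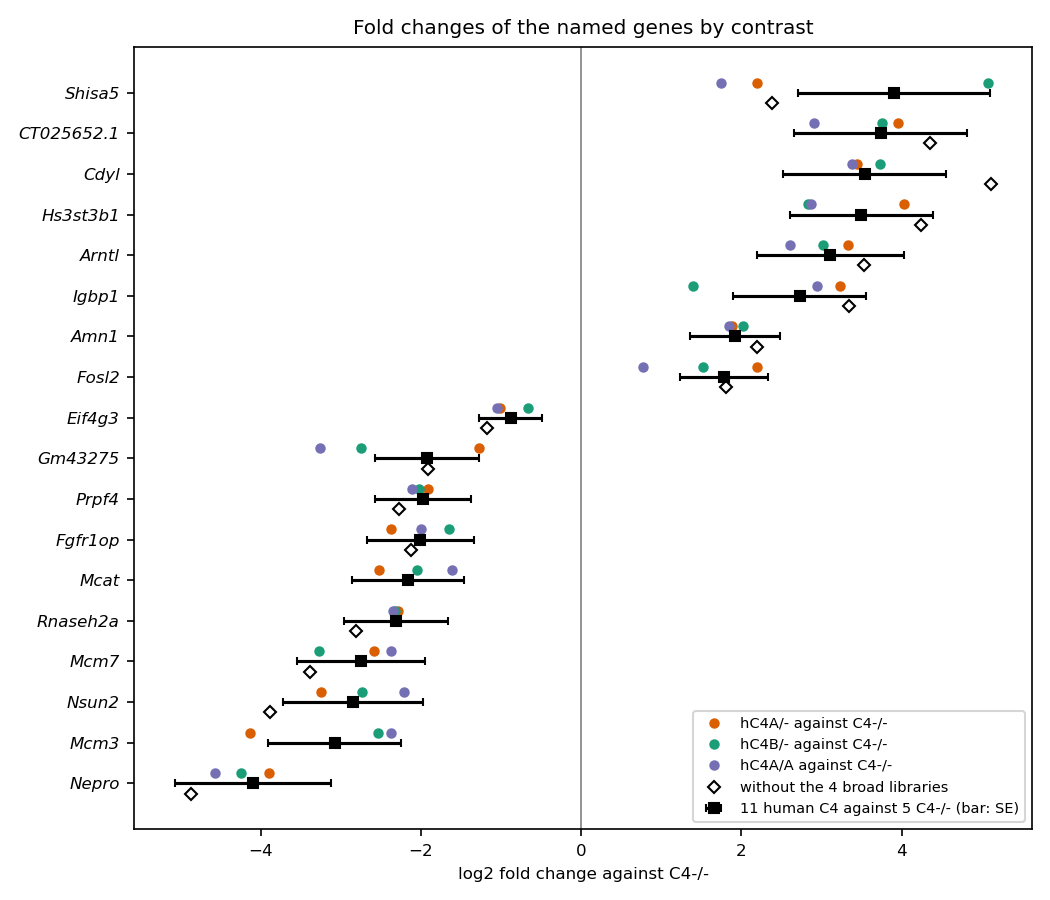
Log2 fold changes against C4-/- for the genes named by rank and for Eif4g3. Squares are the pooled contrast of 11 against 5 libraries with bars of 1 SE, circles are the contrasts of each label, and diamonds are the pooled contrast without the 4 broad libraries. The diamond of Cdyl, at 5.12, lies farthest to the right and that of Nepro, at -4.87, farthest to the left, and Mcm3 and Mcat have no diamond because they did not pass the filter on low counts there.

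Over all tested genes, 1 (0.0123%) had libraries of the pooled groups that did not overlap. This was Eif4g3, a scaffold of translation initiation, named because of that result. The count was not compared with the number that chance gives over 8114 genes. Because the separation is how Eif4g3 was chosen, its values are a description and add no evidence. Eif4g3 (ENSMUSG00000028760, chromosome 4, 137993022 to 138208508) was at 107, 117, 99.7, 92.4 and 108 CPM in C4-/-. With human C4 the 5 hC4A/- libraries were at 54.6, 71.9, 47.6, 62.3 and 22.9, the 4 hC4B/- libraries at 42.1, 81.2, 79.5 and 63.5, and the 2 hC4A/A libraries at 27.7 and 74.3. The C4-/- libraries were even, the broad one included, and all 11 others lay below them. The mean was 57.1 ± 20.1 against 105 ± 9.22 CPM, a log2 fold change of -0.88 ± 0.39 (unadjusted p = 0.0333, adjusted p = 1). The difference was -1.21, -0.66 and -1.02 on the log2 scale within the 3 runs of numbers. No gene was higher with human C4 in every library (0%).

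The repeat without the 4 broad libraries left 8 libraries with human C4 and 4 labelled C4-/-. edgeR again called 0 genes (0%) of 7472, the smallest adjusted p being 0.344, and 490 genes (6.56%) were under an unadjusted p of 0.05, 251 higher (3.36%) and 239 lower (3.2%), where chance gives 374. Of the 46 shared genes, 44 passed the filter there, and 42 of them had an unadjusted p under 0.05 in the pooled contrast and the same sign as before. The libraries kept are among the 16 that defined the 46, so this is no separate evidence. Shared changes numbered 108 there (1.45%), 70 higher and 38 lower, and 34 of the 46 were among them. Of the 17 genes named by rank, 15 passed the filter and all 15 kept their sign with an unadjusted p under 0.05, while 13 of the 17 had the same sign within each run of numbers. These 17 were ranked by p over the same 16 libraries, so both counts follow in part from that choice. They are no separate evidence either.

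Without the broad libraries the groups did not overlap for 35 genes (0.468%), 15 higher (0.201%) and 20 lower (0.268%). Groups with fewer libraries separate more readily, so this count cannot be set against that over all 16. It was not compared with the number that chance gives either, so it is a description and not a result about these genes. Examples from this list were chosen after their values were seen. Hs3st3b1 was at 24 to 92 CPM with human C4 and 0 to 3.89 in C4-/- (log2 fold change 4.24 ± 0.85, edgeR adjusted p = 0.344). Fosl2 was at 109 to 252 against 31.2 to 78.6 CPM (1.81 ± 0.38, adjusted p = 0.344). Both were thus separated by libraries with fewer detected genes, and neither passed. Gpi1, the second enzyme of glycolysis, was at 20.4 to 99.2 against 6.86 to 11.7 CPM (2.18 ± 0.63). Lower genes included the phosphodiesterase Pde12, at 0 to 3.89 against 8.1 to 30.6 CPM, and Gnai2, an inhibitory G protein subunit used by chemokine and purine receptors, at 15.3 to 41.9 against 50 to 97.3. The chemokine Ccl6 was at 47.3 to 121 against 129 to 155 CPM (-0.81 ± 0.35).

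The complement genes of microglia had a median fold change close to that of all genes. Of 25 complement components and regulators, 11 passed the filter, 7 were above 0 and 4 below, none reached an unadjusted p of 0.05, and the median was 0.06 beside 0.03 over all genes. C1qa averaged 684 ± 394 CPM with human C4 (SD, n = 11) and 656 ± 298 in C4-/- (n = 5), C1qb 958 ± 404 and 947 ± 344, and C1qc 846 ± 675 and 618 ± 234. The receptor subunit Itgam was at 175 ± 92.7 and 157 ± 65.1 CPM, and C3ar1, the C3a receptor, at 299 ± 171 and 434 ± 252. For each of these the difference was smaller than the SD within either group. The log2 fold change was 0.45 ± 0.57 for C1qc and -0.53 ± 0.61 for C3ar1, so equal levels were not shown. Cd46, a complement regulator, was at -1.66 ± 1.05, and at 1.00 without C4-/- replicate 4, which held 82.6 CPM.

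Homeostatic and disease-associated programmes of microglia were likewise close to the other genes. All 28 homeostatic genes passed the filter, 10 above 0 and 18 below (35.7% above, beside 52.1% of all genes), with a median of -0.12 and no unadjusted p under 0.05. P2ry12 averaged 500 ± 112 CPM with human C4 and 493 ± 173 in C4-/-, Tmem119 314 ± 97.7 and 330 ± 178, and Cx3cr1 848 ± 213 and 1140 ± 305. Gpr34, a lysophospholipid receptor, was at 502 ± 336 against 250 ± 148 (log2 fold change 1.00 ± 0.58), and Golm1 at 103 ± 26.7 against 165 ± 77.8 (-0.68 ± 0.41). Of 26 disease-associated genes 18 passed the filter, with a median of 0.05 and values from -0.91 to 0.45. Apoe was at 152 ± 111 against 117 ± 110 CPM and Trem2 at 273 ± 83.6 against 269 ± 62.6.

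Gene lists of engulfment had medians near 0, with single members in both directions. The phagocytosis and lysosome list had 29 tested genes with a median of -0.09, and 1 was under an unadjusted p of 0.05, the late endosome GTPase Rab7 at 33.6 ± 14.6 against 65.7 ± 42.6 CPM (-0.96 ± 0.46, and -0.63 without C4-/- replicate 4). The synapse pruning list had 19 tested genes with a median of 0.02. Among them Cd47, the signal that restrains phagocytosis, was at 272 ± 380 against 98.8 ± 39.6 CPM (1.46 ± 0.67, unadjusted p = 0.0394). hC4B/- replicate 3 held 1400 CPM of Cd47, and leaving it out gave 0.69. Atp6v0d1, a proton pump subunit, was at -1.09 ± 0.78 and at 0.20 without C4-/- replicate 5.

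Type I interferon genes did not move together. Of 30, 12 passed the filter, 5 above 0 and 7 below, with a median of -0.20, and 3 were under an unadjusted p of 0.05, all higher. Among these were Ifnar2, described above, and Usp18, which restrains signalling at Ifnar2. Usp18 was at 16 ± 11.6 against 4.45 ± 5.5 CPM (1.88 ± 0.80). The other receptor subunit, Ifnar1, was at 28 ± 17.8 against 63.1 ± 43.9 CPM (-1.18 ± 0.62). Antigen presentation had 15 tested genes and a median of 0.11, with H2-K1 at 1.22 ± 0.70 and the immunoproteasome subunit Psmb9 at 1.16 ± 0.69.

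Inflammatory, immediate early and growth factor genes gave single genes rather than groups. In the cytokine and NF-kB list (23 tested, median -0.08) Il6 was at 2.70 ± 1.15 in the pooled contrast. By label it was at 3.53 in hC4A/-, 2.21 in hC4A/A and -0.06 in hC4B/-, where it held 0.847 to 5.02 CPM. The hC4A/- libraries held 0.666, 2.66, 38.3, 83.1 and 71 CPM, so some of them lay within the C4-/- range of 0 to 8.04. The difference between hC4A/- and hC4B/- was 3.59 ± 1.24 on the log2 scale (edgeR adjusted p = 0.369). Relb, a subunit of the alternative NF-kB pathway, was at 1.87 ± 0.94, and 2.86 without C4-/- replicate 5. The immediate early and dissociation list (20 tested, median -0.14) had Fosl2 under an unadjusted p of 0.05 and Klf4 at -1.37 ± 1.03, and -0.85 without C4-/- replicate 2. TGF-beta signalling (14 tested, median 0) had Bmpr1a, and Smad2 at 1.09 ± 0.84, with 0.68 without hC4A/A replicate 1, 0.44 without both hC4A/A libraries and 1.76 without C4-/- replicate 3.

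Among metabolic lists, glycolysis had the highest median, 0.24, with 9 of 13 tested genes above 0 and 2 under an unadjusted p of 0.05. Gpi1 averaged 44 ± 28.7 CPM with human C4 and 14 ± 12.9 in C4-/- (1.66 ± 0.60), all 11 libraries lay above the C4-/- median of 8.86, and the highest C4-/- library, at 37 CPM, was the broad one. Tpi1, triose phosphate isomerase, was at 2.57 ± 1.09 and at 0.97 without hC4B/- replicate 3, which held 460 CPM. Gapdh was at 42.3 ± 12.3 against 50.5 ± 20.4 CPM and Ldha at 43.2 ± 27 against 45.3 ± 22.4, so the list did not move as a whole. Lipid and cholesterol genes (19 tested, median -0.13) held 2 under an unadjusted p of 0.05, among them the desaturase gene Scd2 at 2.24 ± 1.07. Scd2 was at 1.20 without hC4B/- replicate 1.

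Genes of the respiratory chain, the ribosome and secretion had medians close to 0 in the pooled contrast, and lower medians without the broad libraries. Oxidative phosphorylation genes of the nucleus had a median of -0.07 (49 tested, 20 above 0), and -0.23 without the broad libraries (48 tested, 12 above 0). All genes tested in both fits had a median of 0 there (7255 tested, 3615 above 0). By label the list was at -0.04 for hC4A/-, 0.05 for hC4B/- and -0.56 for hC4A/A. Among its members were Ndufb9 at -1.21 ± 0.69 and Atp5a1 at -0.97 ± 0.56. The size of each depended on 1 library: Ndufb9 was at -0.40 without C4-/- replicate 1 and Atp5a1 at -0.09 without C4-/- replicate 2. Without the 4 broad libraries Ndufb9 was at -1.94 ± 0.69 and Atp5a1 at -1.33 ± 0.50. Cytosolic ribosomal proteins had a median of 0.03 (54 tested, 30 above 0), but 0.16 for hC4A/-, 0.10 for hC4B/- and -0.99 for hC4A/A. Without the broad libraries their median was -0.14, with 18 above 0. Rps24 was at 0.64 ± 0.56, and 0.40 without C4-/- replicate 2, and Rpl4 at -0.67 ± 0.59, and -0.30 without C4-/- replicate 1. Mitochondrial transcripts had a median of -0.13 (9 tested, 3 above 0), and -0.35 without the broad libraries (1 above 0). Among them mt-Nd2 was at -0.73 ± 0.45, and -1.23 ± 0.39 without the broad libraries. The value of mt-Rnr1 was -0.89 ± 0.77, 0.49 without C4-/- replicate 3 alone and -1.07 ± 0.37 without all 4 broad libraries. The COPII list had 14 tested genes with a median of -0.14, and -0.28 without the broad libraries. In this list Tfg was at -1.69 ± 0.78, and -1.04 without C4-/- replicate 2. Sec23b was at 0.98 ± 0.87, with 1.53 without C4-/- replicate 3 and 0.61 without the 2 hC4A/A libraries. The cell cycle list had 5 of 25 genes tested, Mcm3, Mcm4 and Mcm7 lower, Pcna at 1.04 and the thymidylate synthase gene Tyms at 2.34 ± 0.94. Its median was -0.76, and 0.13 without the broad libraries, where Mcm3 did not pass the filter.

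**Figure D4:**
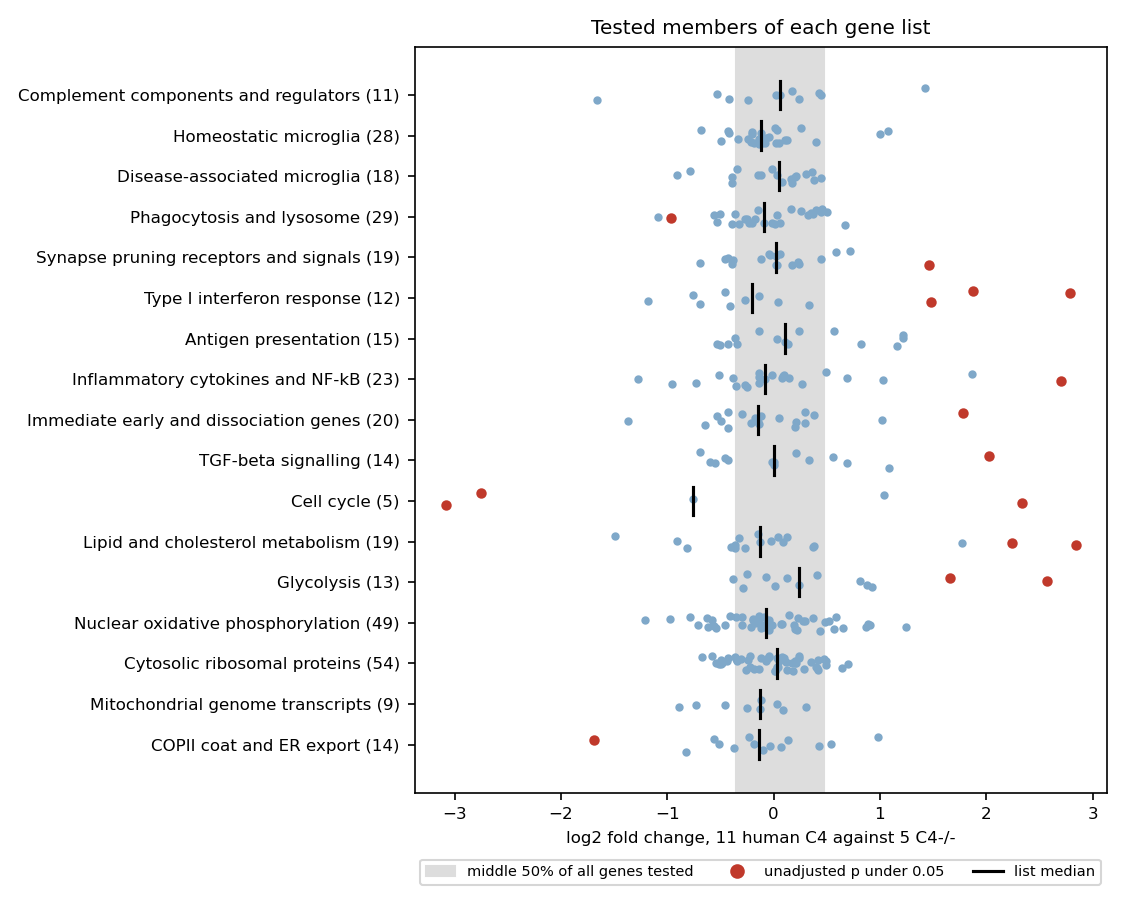
Log2 fold change of each tested member of the 17 gene lists in the pooled contrast of 11 libraries with human C4 against 5 C4-/- libraries, with the number tested in parentheses. Points are genes, red points have an unadjusted p under 0.05, black lines are list medians and the grey band is the middle 50% of all tested genes, from -0.35 to 0.47. All list medians except that of the cell cycle list lie inside the band.

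Markers of cell types other than microglia, which may pass the gate, were detected in libraries of both groups. Neutrophil markers were summed to 0.772 to 208 CPM with human C4 (median 61.1) and 0 to 102 in C4-/- (median 2.39). All 5 tested neutrophil genes were above 0, among them Lcn2 at 1.77 ± 1.27 and S100a8 at 1.63 ± 1.39, with a median of 1.63, and 0.90 without the broad libraries, and their part in the results above was not tested. Border macrophage markers were summed to 395 to 847 against 462 to 966 CPM, monocyte markers to 2.66 to 79.3 against 15.8 to 63.8, and lymphocyte markers to 51.2 to 288 against 44.2 to 371. Neuron markers were summed to 2.13 to 177 against 4.89 to 89.5 CPM, astrocyte markers to 70.9 to 540 against 144 to 588, oligodendrocyte markers to 70.1 to 206 against 69.1 to 262, endothelial and mural markers to 38.6 to 167 against 57 to 91.7, and erythroid markers to 0 to 42.7 against 0 to 4.82. Every one of these ranges overlapped between the groups, and each marker gene had counts in at least 1 library. Medians differed. With human C4 and in C4-/- they were 497 and 839 CPM for border macrophage and 31.3 and 21.7 for monocyte markers. Lymphocyte medians were 112 and 203, neuron 63.9 and 34.9, and astrocyte 308 and 365. Oligodendrocyte medians were 133 and 192, and endothelial and mural 108 and 83.3. The erythroid median was 16 with human C4, above the highest C4-/- library, and 4.31 in C4-/-. The part of these lists in the results was not tested.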

How the data were processed

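RNA of sorted microglia was counted in 16 libraries, 1 per mouse. The deposited files hold raw read counts per gene in the layout of STAR, and the submitters' processing notes name STAR and edgeR as tools and GRCm38 as build. Their versions, and the annotation used for counting, were not given in the sources used here. Of the 3 count columns the unstranded one was taken. Summary lines stayed out of library sizes and tests, and they took 14.8% to 42.1% (unmapped), 13.2% to 28.9% (multimapping), 21.8% to 42.1% (no feature) and 0.897% to 5.86% (ambiguous) of reads. Reads of near-identical genes are lost to multimapping. Of 54838 genes, 54723 were matched to a symbol in GENCODE annotation of GRCm38. The cDNA was amplified and carries no molecular identifiers, so reads are not independent molecules. Within a genotype, libraries differed by 10.9 to 65.5 times the chi-square per degree of freedom that sampling noise gives, so none was a copy of another.

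Genes were filtered with filterByExpr by the 2 pooled groups, which kept 8114, and scaled by TMM. edgeR 4.0.16 in R 4.3.3 gave a robust quasi-likelihood fit of the pooled groups with 14 residual degrees of freedom (common dispersion 0.843, biological coefficient of variation 0.918) and, on the same genes, a fit with 1 coefficient per label. A gene was called at a Benjamini-Hochberg adjusted p under 0.05. The median count of a tested gene in a library was 23. C4b was also compared by an exact permutation test of log2 CPM with a prior count of 2. Named genes are the 6 higher and 6 lower shared genes of smallest p detected in at least 12 libraries, the 5 higher and 5 lower of smallest p detected in all 16, the 2 of smallest p in each of 17 lists, and C4b, with other genes named for their role in a list. Some genes that the rule names are not reported here. The comparison, lists and rules were chosen with earlier results of these data known. Replicate numbers were not used to pair the libraries in the main fit. Deviations of same-numbered pairs correlated at -0.36 to 0.71 (median 0.01), with 4 of 19 above 0.1. Pairs of other numbers correlated at -0.74 to 0.75 (median 0), with 9 of 74 above 0.1. Other settings were the libraries left out, RLE scaling, no filter, the replicate block, DESeq2 1.42.0, voom in limma 3.58.1, all 20 libraries, covariates for the run of numbers and for Xist, scaling without satellite-like genes, a library-weighted contrast, hC4A/A left out and, chosen after seeing the data, a filter by genotype. The procedure was also run on simulated counts with large changes and a lower dispersion than these data. That run therefore does not show which changes could be detected here.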

Additional observations from a re-analysis of the deposited data

Results flagged for a closer look

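Groups of 4 or 5 libraries of 1 label were examined over 49 named genes. In 6 of 147 such groups (4.08%), 1 library stood apart from the others of its label by Dixon's 95% criterion. Chance meets that criterion in about 1 of 20 groups. C4-/- replicate 3, a broad library, held 8.84 CPM of the chemokine Ccl6, and the other 4 held 107 to 137. The same library held 37 CPM of the glycolytic gene Gpi1, against 5.98 to 10 in the others. Another broad library, hC4B/- replicate 3, held 39 CPM of the respiratory chain gene Ndufb9, against 3.47 to 5.08. hC4A/- replicate 5, which is not broad, stood apart for 3 genes. It held 8.69 CPM of the transcription factor gene Klf4 against 0 to 0.781, 28.7 CPM of the ATP synthase gene Atp5a1 against 77.3 to 107, and 193 CPM of the mitochondrial ribosomal RNA mt-Rnr1 against 111 to 123.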

How the results depend on the processing

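Over 29 other settings, 1392 values of the named genes kept their direction and side of the threshold, 4 passed it and 6 reversed. Without the filter on low counts edgeR called 61 genes in the pooled contrast (9 higher, 52 lower, of 44413), 63 in hC4A/- and 9 in hC4B/- against C4-/-, and 31 in hC4A/- against hC4B/-. Among the 61 were Nepro (adjusted p = 0.00108), Mcm3 (0.00957) and Nsun2 (0.0274). DESeq2 called 1, 15, 3 and 73 genes in the same 4 contrasts, and voom called 1 in hC4A/-. Shared changes numbered 108 without the broad libraries, 430 without the filter (186 higher, 244 lower), 109 with the filter by genotype and 26 with the replicate block, and 27 to 108 with each library left out. The block moved no contrast's count of calls from 0. Genes whose groups did not overlap numbered 35 without the broad libraries and 1 to 9 with each library left out, at most 9 without C4-/- replicate 3. The causes were not tested. Mouse C4b reversed from 1.42 to -1.48 without the broad libraries, -0.22 with the replicate block and -0.49 with voom. The difference of its mean log2 CPM ran from -0.56 to 0.61 with each library left out. With each library left out, mt-Rnr1 ran from -1.34 to 0.49, Cd46 from -1.99 to 1.00 and Atp6v0d1 from -1.38 to 0.20, each reversed by 1 C4-/- library. The median of all genes was 0.35 without the filter, 0.14 with the filter by genotype and 0.15 without C4-/- replicate 3, and the library-weighted contrast had 46.7% higher genes among those under an unadjusted p of 0.05. The median count of a tested gene in a library was 23, and how far depth limits the calls was not tested.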
